A study of Mus musculus with 8 samples.

Results

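The 35 genes described here encode glutamate receptor subunits and the proteins that hold them at the postsynaptic membrane: AMPA, kainate, NMDA and delta receptor subunits, metabotropic receptors, the Neto auxiliary subunits, and the Dlg, Shank and Homer scaffolds. They were taken by name from the array table, using only probe sets that name 1 gene and, of several, the brightest on average. This gave 34 genes of the 19938 tested. The level of Grin1, the obligatory subunit of the NMDA receptor, was not analysed here. The tissue was mouse neocortex from pups aged 5 days (postnatal day 5), from which layers II to IV were cut out by laser, and each array held the RNA of 1 pup. The 4 controls were Bcl6 flox/flox;Nex +/+ and the 4 mutants Bcl6 flox/flox;Nex Cre/+, so pups of both groups carry the floxed Bcl6 alleles and only mutants carry Cre. Bcl6 encodes a transcriptional repressor with zinc fingers. Nex is Neurod6, which is active in postmitotic excitatory neurons of the cortex, so that interneurons, glia and vessel cells in the same samples are not expected to make Cre, and mutants also have 1 Neurod6 allele with Cre in it.

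Glutamate is the main excitatory transmitter of the cortex. AMPA receptors carry the fast current, NMDA receptors admit calcium when transmitter release and depolarisation coincide, kainate receptors tune release and excitability, and metabotropic receptors act through G proteins. Scaffolds of the Dlg family (membrane-associated guanylate kinases, or MAGUKs) bind receptor tails, Shank proteins form the deeper layer of the postsynaptic density, and Homer proteins link Shank to group I metabotropic receptors. The first postnatal week is a time of synapse formation in these layers, when subunits such as Grin2b and scaffolds such as Dlg3 are known to precede Grin2a and Dlg4.

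No member passed the threshold. A difference here is the mutant mean less the control mean in log2 units, fitted with limma and given with its standard error (SE), and p-values were adjusted over all 19938 genes by Benjamini-Hochberg. Of the 34 members 0 rose and 0 fell at an adjusted p under 0.05, against 0.0502% and 0.015% of all genes, and every member's adjusted p was at least 0.996. At an unadjusted p under 0.05, limma gave 1 member higher (Neto2) and 0 lower, against 1.64% and 3.28% of all genes. The differences lay between -0.14 (Gria1) and 0.19 (Grik1), with a median of 0.010, beside -0.0096 over all genes. The median size of a difference, regardless of sign, was 0.058 for members and 0.051 for all genes. The intervals bound what these arrays leave room for. The 95% interval of the difference lay within a 1.3-fold change either way for 32 of the 34 members and within 1.5-fold for all 34. The widest reached 1.34-fold. Of all 19938 genes, 18247 lay within 1.3-fold and 19792 within 1.5-fold, so bounds of this size are not particular to the members. These intervals are per gene and not adjusted for the number of genes. The 2 members whose intervals passed 1.3-fold were Grik1 and Grm8. In tissue RNA of this kind, fewer cells of a type and less RNA per cell cannot be told apart.

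**Figure D1:**
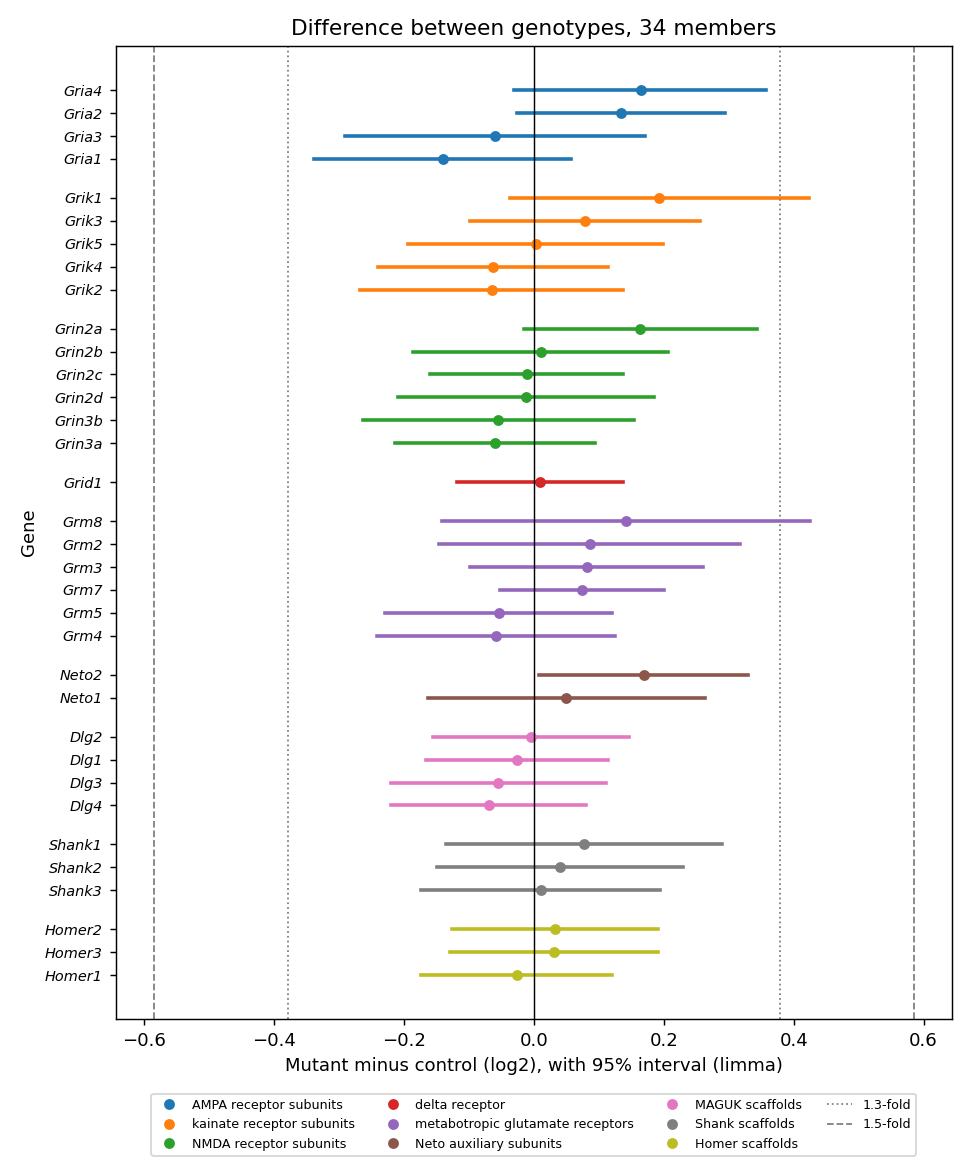
Mutant mean less control mean (x axis, log2) of the 34 members (y axis, grouped and coloured by class), with the 95% interval from limma as a bar. All intervals stay inside the dashed lines at 1.5-fold, and 32 stay inside the dotted lines at 1.3-fold.

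The promoters of the members were searched for the letters that BCL6 and STAT proteins share in their known recognition sequence, TTCNNNGAA, which reads the same on both strands. The table of RefSeq promoters (GRCm38.p6) held 37 windows for 23 of the 35 members, each from 250 bases before to 50 bases after a transcript's start. It held none for Gria1, Gria3, Grik1, Grin2a, Grin2b, Grin3a, Grid1, Grm4, Grm5, Neto1, Shank1 and Shank2, so the search does not cover these. None of the 37 windows held TTCNNNGAA, against 8.3% of all 32851 windows, and none held the fuller TTCCTAGAA on either strand, against 0.411%. The GC box, GGGCGG on either strand, stood in 18 of the 37 windows (48.6%) and in 35.7% of all windows. A missing match says only that these letters are not in these windows. Sequences are shown for Neto2, the member with the smallest p, and Gria2, the AMPA receptor subunit that sets calcium permeability. Each is written 5′ to 3′ on the gene's strand in lower case, with GC boxes in capitals. Of the 2 Neto2 windows, the one printed (chr8:85700875-85701174, minus strand) held 2 GC boxes and 72.0% G and C, and the other (chr8:85690960-85691259, minus strand) held 0 GC boxes and 42.7%. The Gria2 window (chr3:80802786-80803085, minus strand) held 0 GC boxes at 65.7% G and C.
Neto2: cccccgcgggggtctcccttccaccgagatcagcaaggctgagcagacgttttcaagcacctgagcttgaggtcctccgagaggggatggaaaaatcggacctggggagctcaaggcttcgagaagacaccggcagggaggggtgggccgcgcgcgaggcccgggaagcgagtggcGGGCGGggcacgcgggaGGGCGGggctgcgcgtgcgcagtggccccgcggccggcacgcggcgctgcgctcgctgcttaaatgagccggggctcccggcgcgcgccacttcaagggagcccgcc
Gria2: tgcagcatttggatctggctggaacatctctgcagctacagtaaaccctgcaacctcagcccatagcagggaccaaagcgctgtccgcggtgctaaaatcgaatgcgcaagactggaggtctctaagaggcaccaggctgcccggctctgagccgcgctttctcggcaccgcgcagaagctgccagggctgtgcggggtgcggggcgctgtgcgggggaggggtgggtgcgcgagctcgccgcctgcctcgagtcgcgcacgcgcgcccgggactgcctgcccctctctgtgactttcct

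The labels and arrays were checked on genes outside the members. Bcl6 itself read 6.23 to 6.58 in controls and 6.61 to 6.96 in mutants, so mutant-labelled arrays did not show less of it. Which of its probes the deletion covers is not known from the labels, so it checks neither deletion nor labels, and each direction below rests on the labels. Neurod6, of which mutants have 1 altered allele, read 9.15 to 9.41 in controls and 8.69 to 9.07 in mutants (limma adjusted p = 0.535). Markers of the labelled layers gave values from 8.42 to 8.95 for Cux2 and 9.35 to 10.50 for Rorb over the 8 arrays. The 9 deep layer markers ran from Foxp2 (4.32 to 4.75) up to Tbr1 (8.82 to 9.10). Levels of different probe sets are not comparable, so these values do not check which layers were cut out. The table has no detection calls, so low values cannot be marked as absent. Xist was high in mutant replicates 1 and 4 (9.78 and 9.76) and at most 3.41 in the other 6 arrays. The Y-linked gene Uty read 3.09 and 2.98 in these 2 arrays and 6.58 to 6.92 in the other 6. High Xist with low Uty was thus found in mutants only, so sex-linked levels are not balanced between the genotypes. The labels give no sex, and without these 2 arrays again 0 members were called. The Y-linked covariate used below was the mean of Eif2s3y, Kdm5d and Uty.

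The AMPA receptor subunits gave 2 positive and 2 negative differences. Gria4, a subunit prominent in young cortex and in interneurons, read 7.63, 7.95, 7.66 and 7.88 in the controls and 8.10, 7.96, 7.82 and 7.90 in the mutants, in the order of their replicate numbers, as in the lists that follow. Mutants 1 and 2 lay above every control, while the other 2 lay inside the control range. The difference was 0.16 ± 0.09 (SE, n = 4 per group; limma unadjusted p = 0.0899; exact permutation p = 0.171, two-sided). Gria2, whose edited form makes AMPA receptors almost impermeable to calcium, read 9.56, 9.84, 9.69 and 9.55 in controls and 9.82, 9.76, 9.80 and 9.81 in mutants. The mutant values lay close together (SD 0.027 against 0.133 in controls), all of them above 3 of the 4 controls. Its difference was 0.13 ± 0.07 (SE; unadjusted limma p = 0.0928; exact permutation p = 0.143).

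Gria1, the subunit inserted during early activity-dependent strengthening of synapses, had the most negative difference of the 34 members. It read 8.95, 9.16, 9.16 and 9.22 in controls and 9.10, 8.74, 9.03 and 9.06 in mutants. Control 1 lay below 3 of the mutants, so the groups overlapped, and the difference was -0.14 ± 0.09 (SE; unadjusted limma p = 0.149; exact permutation p = 0.229). Without mutant replicate 2 the Gria1 difference was -0.059, and Grik4 (-0.135) was then lower, while without the arrays with high Xist it was -0.24. Gria3, an X-linked subunit that often pairs with Gria2, read 8.39 to 8.68 in controls and 8.17 to 8.60 in mutants. Its difference was -0.06 ± 0.11, which became 0.04 without mutant replicate 2 and -0.17 without the arrays with high Xist.

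**Figure D2:**
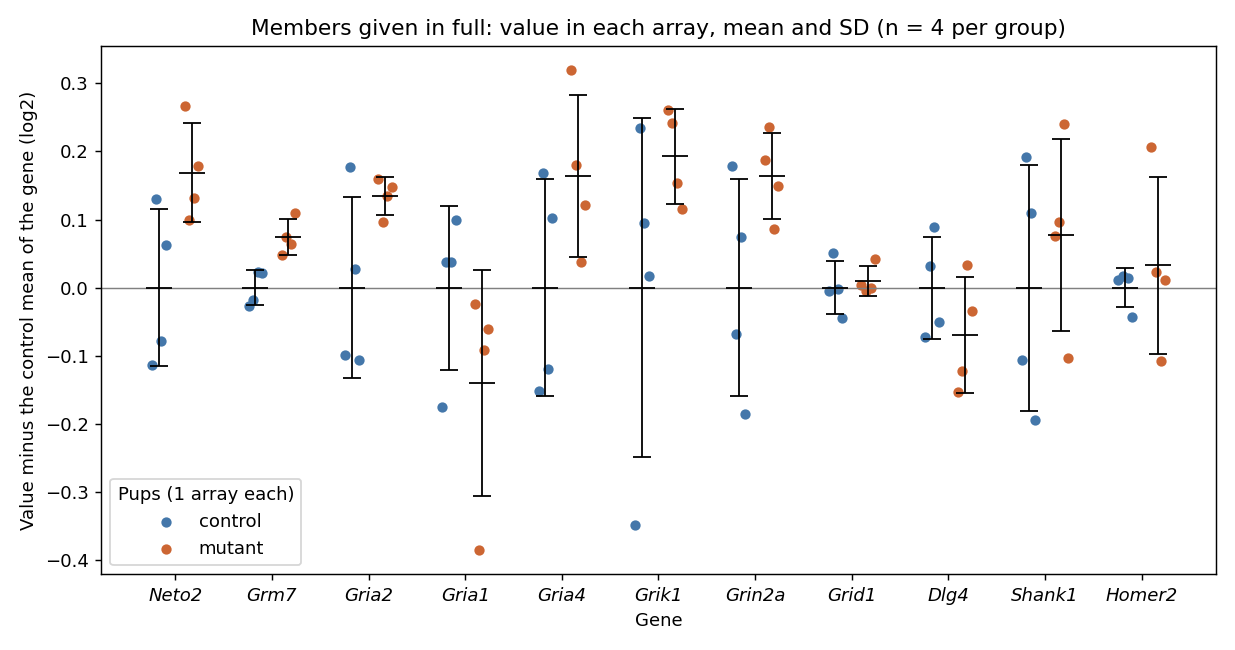
Value of each array minus the control mean of the gene (y axis, log2) for the 9 members given in full by rule, with Gria1 and Gria2 (x axis), and bars for the mean and SD of 4 control (blue) and 4 mutant (orange) pups. Control and mutant points overlap in every gene except Grm7, whose gap is small beside the spread of the other genes.

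The kainate receptor subunits and their auxiliary partners held both the most positive difference and the smallest p among the members. Grik1, a subunit known from interneurons, read 5.23, 5.81, 5.68 and 5.60 in controls and 5.84, 5.82, 5.73 and 5.70 in mutants. Control 1 stood well below the other 7 arrays, and the other controls were close to the mutants. The difference was 0.19 ± 0.11 (SE; unadjusted limma p = 0.0928; exact permutation p = 0.114), and without control replicate 1 it was 0.077. Grik3 differed by 0.08 ± 0.08 and Grik5, a high-affinity subunit, by 0.0029 ± 0.0903. The sign of Grik5 changed in 5 of the 8 fits that left out 1 array. Grik2, the main subunit of principal neurons, differed by -0.06 ± 0.09 and Grik4, the other high-affinity subunit, by -0.06 ± 0.08.

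Neto2, a membrane protein with CUB domains that slows the closing of kainate receptors, read 9.65, 9.90, 9.69 and 9.83 in controls and 10.03, 9.87, 9.90 and 9.95 in mutants. All 4 mutants lay above the control mean of 9.77, but control 2 lay above mutant 2, so the groups overlapped. The difference was 0.17 ± 0.07 (SE), or 1.12-fold with a 95% interval from 1.01 to 1.26 (unadjusted limma p = 0.0404, adjusted p = 0.996; exact permutation p = 0.0571). It lay between 0.13 and 0.21 in the fits without 1 array and was 0.12 without the 2 arrays with high Xist. Neto1, its paralog, which also associates with NMDA receptors, read 7.81 to 8.11 in controls and 7.87 to 8.26 in mutants, a difference of 0.05 ± 0.10. Mutant replicate 1 held the highest value of both Neto genes, and without it the Neto1 difference was -0.038.

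The 6 NMDA receptor subunits measured gave 2 positive and 4 negative differences. Grin2a, which replaces Grin2b in many receptors as the cortex matures, read 7.78, 7.54, 7.68 and 7.42 in controls and 7.79, 7.84, 7.69 and 7.75 in mutants. All 4 mutants lay above the control mean of 7.61, with control 1 inside their range. The difference was 0.16 ± 0.08 (SE; unadjusted limma p = 0.0683; exact permutation p = 0.114). Grin2b, the subunit of most cortical NMDA receptors at birth, read 10.45 to 10.79 in controls and 10.46 to 10.77 in mutants, and differed by 0.01 ± 0.09. This leaves room for a change of at most 1.15-fold upward by its interval. Its sign changed when control 4, mutant 1 or mutant 3 was left out, and without the arrays with high Xist.

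The other NMDA receptor subunits differed by less than their errors. Grin2d, a subunit of interneurons and young brain, differed by -0.01 ± 0.09 and was slightly positive (0.0014) after median centring. Grin2c, best known from cerebellum and astrocytes, differed by -0.01 ± 0.07 and was positive under quantile normalization, median centring and cyclic loess. Grin3a, which lowers calcium entry and is abundant in the early postnatal cortex, read 6.96 to 7.17 in controls and 6.93 to 7.06 in mutants (-0.06 ± 0.07). Grin3b, mainly a subunit of motor neurons, read 4.45 to 4.88 and 4.40 to 4.63 (-0.05 ± 0.10).

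Grid1, a delta receptor that binds cerebellins at synapses rather than opening to glutamate, read 8.14, 8.19, 8.14 and 8.10 in controls and 8.15, 8.14, 8.14 and 8.18 in mutants. Both groups covered almost the same values. Its difference of 0.01 ± 0.06 (SE; unadjusted limma p = 0.867; exact permutation p = 0.743) had the narrowest bound of the 34, at most 0.138 either way on the log2 scale.

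The metabotropic receptors gave 4 positive and 2 negative differences. Grm7, a presynaptic group III receptor, read 8.990, 8.998, 9.039 and 9.038 in controls and 9.065, 9.091, 9.080 and 9.126 in mutants. It was the only member whose groups did not overlap in either direction, 1 of 34. Of all genes, 0.963% had every mutant above every control and 1.79% had every mutant below every control. The size was small, 0.07 ± 0.06 (SE), or 1.05-fold. The exact permutation p was 0.0286, the smallest that 4 against 4 arrays allow. Groups without overlap always give this value, so it adds nothing to the missing overlap for which Grm7 was picked. Limma, which draws the small variance of this gene toward that of all genes, gave an unadjusted p of 0.224. The difference stayed between 0.062 and 0.088 in all 21 alternatives.

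The group II receptors Grm2 and Grm3 dampen glutamate release and, in the case of Grm3, also act in astrocytes. Grm2 differed by 0.09 ± 0.11 and Grm3 by 0.08 ± 0.08. Both had their lowest value of the 8 arrays in control replicate 4 (8.31 and 10.12), and without it they differed by -0.031 and 0.0093. Grm8, another group III receptor, ranged more widely in controls (5.05 to 5.60) than in mutants (5.26 to 5.67) and differed by 0.14 ± 0.13. Its difference was 0.049 without control replicate 2, 0.067 without control replicate 1, 0.076 without mutant replicate 1 and 0.024 without the arrays with high Xist. Grm4, of the same group, differed by -0.06 ± 0.08. Grm5, the group I receptor that Homer binds, read 9.13 to 9.34 in controls and 9.03 to 9.33 in mutants, a difference of -0.05 ± 0.08 that turned to 0.0071 without mutant replicate 2.

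The median size of a difference between genotypes was 0.032 for the 10 Dlg, Shank and Homer genes and 0.064 for the 22 receptor genes, a description without a test. The median SE was 0.074 and 0.087 in the same order. The intervals of all 10 scaffolds lay within 1.3-fold, as did those of 20 of the 22 receptor genes and 18247 of all 19938 genes. Dlg4, or PSD-95, the main MAGUK of mature excitatory synapses, read 9.44, 9.55, 9.60 and 9.46 in controls and 9.36, 9.39, 9.55 and 9.48 in mutants. Mutants 1 and 2 lay below every control and the other 2 within their range. Its difference was -0.07 ± 0.07 (SE; unadjusted limma p = 0.335; exact permutation p = 0.314). Dlg3 (SAP102), an X-linked MAGUK that dominates young synapses, differed by -0.05 ± 0.08, Dlg1 (SAP97) by -0.03 ± 0.06, and Dlg2 (PSD-93) by -0.0047 ± 0.069. The Dlg3 difference was -0.105 without the arrays with high Xist and -0.0073 without mutant replicate 2. Dlg2 was positive under quantile normalization, median centring and cyclic loess, so the 4 MAGUKs did not share a sign under these scalings.

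Shank1, a scaffold that binds Homer and the Dlgap proteins, read 8.67, 8.96, 8.88 and 8.58 in controls and 8.85, 8.87, 9.01 and 8.67 in mutants. The lowest array of each group was replicate 4, and the groups overlapped. The difference was 0.08 ± 0.10 (SE; unadjusted limma p = 0.442; exact permutation p = 0.543). Shank2 and Shank3, genes with known mutations in autism, differed by 0.04 ± 0.09 and 0.01 ± 0.08, and both were negative (-0.036 and -0.026) without control replicate 4. Shank2 has 2 further probe sets, which differed by 0.0094 ± 0.0759 and 0.15 ± 0.08 (SE). The last of these is dim, with a control mean of 4.73. All 3 estimates were positive, and whether they differ in size was not tested.

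Homer2 read 7.41, 7.42, 7.42 and 7.36 in controls and 7.61, 7.43, 7.30 and 7.41 in mutants. The controls lay close together and the mutants spread on either side of them, so that the SD was 0.029 in controls and 0.130 in mutants. The difference was 0.03 ± 0.07 (SE; unadjusted limma p = 0.659; exact permutation p = 0.657), and its other probe set gave 0.07 ± 0.10. Homer1, which has a short activity-induced form that the probe set does not separate here, differed by -0.03 ± 0.07 and Homer3 by 0.03 ± 0.07. The signs of all 3 Homer genes changed in at least 1 of the alternatives.

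Pairs of genes whose relative use is known to shift with age, or that form the common AMPA receptor, were compared within each array. The level difference between 2 probe sets has no meaning by itself, so only its change between groups is described, and no test was made. Gria1 minus Gria2 was -0.61, -0.68, -0.53 and -0.33 in controls and -0.72, -1.02, -0.76 and -0.75 in mutants. All 4 mutants lay below all 4 controls, the only pair of the 3 without overlap. No share over other gene pairs was computed to set beside this. The pair joins Gria1, which had the most negative difference of the members (-0.14), to Gria2, whose difference was positive (0.13). Its change is made of these 2 differences, and the members were chosen with earlier results of these data known. The change was -0.27 on the log2 scale, from -0.54 ± 0.15 (SD, n = 4) to -0.81 ± 0.14, which is 1.21-fold. It was -0.21 without control replicate 4 and also without mutant replicate 2, and -0.35 without the 2 arrays with high Xist. Neither gene passed the threshold by itself.

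The other pairs overlapped between groups. Grin2a minus Grin2b was -2.85, -3.25, -3.02 and -3.03 in controls and -2.96, -2.62, -3.08 and -2.88 in mutants, a change of 0.15 that fell to 0.066 without mutant replicate 2 and to 0.082 without control replicate 2. Dlg4 minus Dlg3 was 0.91, 0.89, 0.99 and 1.04 in controls and 0.75, 1.03, 1.01 and 0.98 in mutants. Its change of -0.015 was small beside the SD of 0.07 in controls and 0.13 in mutants, and its sign turned without control replicate 4 (0.013), without mutant replicate 1 (0.048) and without the arrays with high Xist (0.061).

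**Figure D3:**
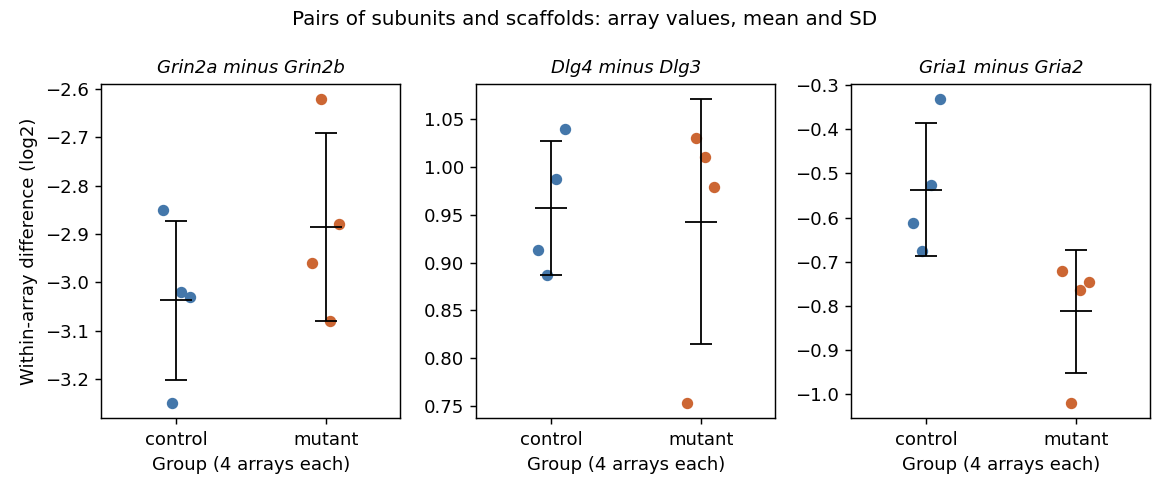
Within-array difference between the log2 values of 2 genes (y axis) for 3 pairs, with a point per array and bars for the mean and SD of 4 control and 4 mutant pups. Only Gria1 minus Gria2 has no overlap, with controls from -0.68 to -0.33 and mutants from -1.02 to -0.72. How often other gene pairs lack overlap was not computed.

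The members also varied from pup to pup within a genotype. As the median deviation of the 34 members from their own means over 8 arrays, the controls in order read -0.026, 0.073, 0.019 and -0.072, and the mutants 0.062, -0.031, 0.046 and -0.0029. The range within controls was thus wider than the median difference between the genotypes. Control replicate 4 held the lowest control value for 19 of the 34 members (55.9%) and for 29.0% of all genes. Mutant replicate 2 held the lowest mutant value for 18 members (52.9%) and for 29.1% of all genes.

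Of these, 10 members were lowest of their group in both arrays: Gria2, Grik3, Grin2b, Grin3b, Grid1, Grm3, Grm5, Dlg2, Dlg3 and Homer1. A further 9 were lowest in control replicate 4 alone, among them Grin2a, Grm2 and all 3 Shank genes, and 8 in mutant replicate 2 alone, among them Gria1, Gria3 and both Neto genes. Grin2a read highest of the mutants in mutant replicate 2, and Gria1 read highest of the controls in control replicate 4. Of the upper layer markers fixed as a list, 7 of 7 lay below their own mean in control replicate 4, with a median deviation of -0.278, and 6 of 7 in mutant replicate 4. Their summed linear level ran from 3346 to 4975 in controls and from 4030 to 4893 in mutants. The summed level of the 9 deep layer markers ran from 1372 to 1479 in controls and from 1505 to 1638 in mutants. It was the only marker list whose sums did not overlap between the genotypes. By difference, 6 of these 9 markers were higher and 3 (Foxp2, Crym and Ntsr1) lower in mutants, and none was called. Ldb2 had the largest difference at 0.80, reading 7.29 to 8.03 in controls and 8.07 to 8.64 in mutants. The sums without Ldb2 were not computed, so the gap between the sums cannot be read as a trait of the whole list. In mutant replicate 2 all 10 endothelial and mural markers and all 9 microglia markers lay below their own means, with median deviations of -0.183 and -0.094. The part of these marker differences in the member values was not tested.

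**Figure D4:**
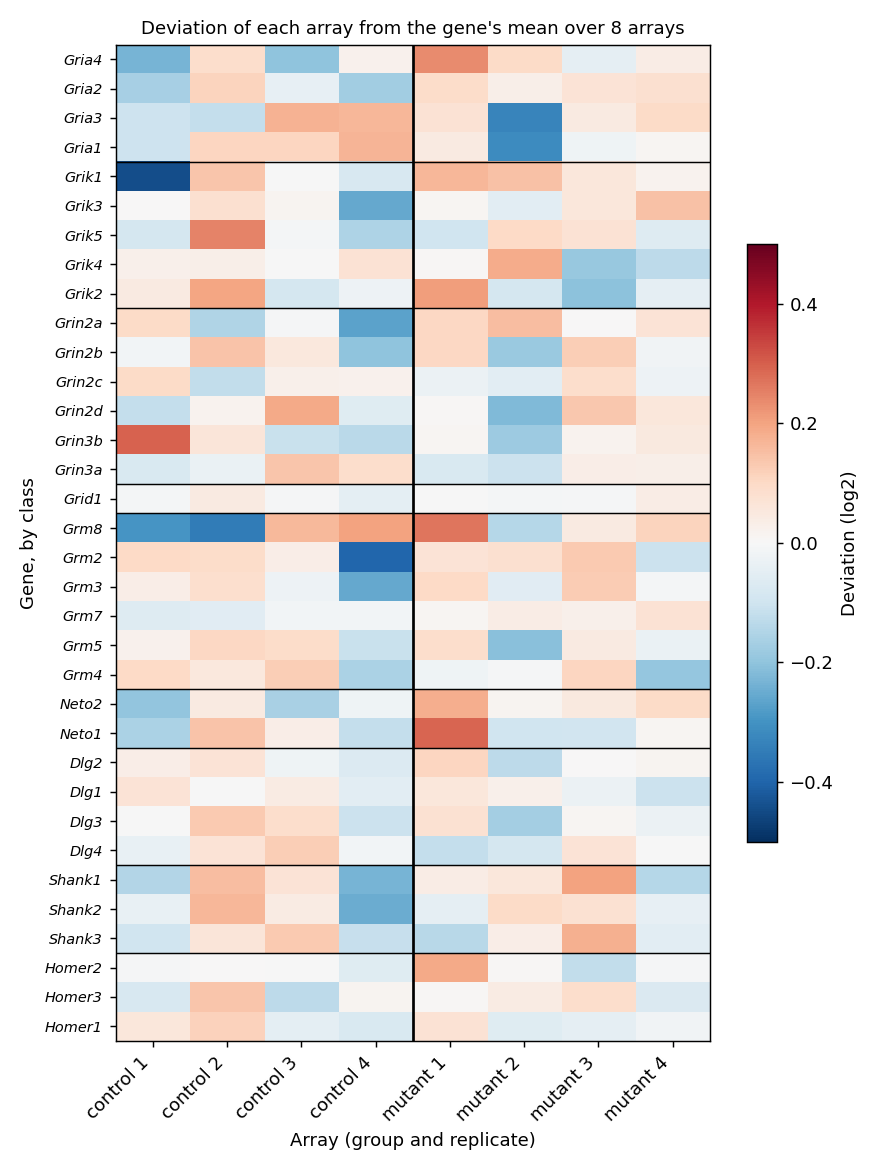
Deviation of each array (x axis) from the gene's mean over 8 arrays (colour, log2, blue low and red high) for the 34 members (y axis, by class, black lines between classes and between genotypes). Members below their own mean number 26 in control 4, the most of the controls, and 19 in mutant 2, beside 18 in mutant 4. By a different count, 19 members were the lowest of their group in control 4 and 18 in mutant 2.

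Other genes of the postsynaptic side of the glutamate synapse gave no call either. Of 69 listed genes 65 were tested, and 0 rose and 0 fell in limma. At an unadjusted p under 0.05 there were 1 higher and 2 lower of 65, against 1.64% and 3.28% of all genes. Their median difference was -0.018, with 26 positive and 39 negative (40.0% positive, against 44.6% of all genes). The share over all genes depends on scaling and was 52.3% after median centring. The share of this list was not computed under that scaling, so 40.0% cannot be set against 52.3%. Groups did not overlap in 0 genes with mutants above and 2 with mutants below (1.79% of all genes had every mutant below every control). By class, 16 auxiliary subunits of AMPA receptors had a median of -0.027, 14 trafficking adaptors -0.029, 18 other scaffolds and adhesion proteins of the postsynaptic density -0.020, and 16 kinases, phosphatases and related proteins -0.012. Of the receptors outside the members, Grm6 was tested, at -0.09 ± 0.09.

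The smallest p in that list belonged to Lrrtm2, a leucine-rich repeat adhesion protein that binds neurexins and holds AMPA receptors. It read 9.49, 9.45, 9.45 and 9.49 in controls and 9.41, 9.26, 9.20 and 9.24 in mutants. All mutants lay below all controls, by -0.19 ± 0.06 (SE, n = 4 per group; limma adjusted p = 0.907). Gsg1l, an auxiliary subunit that slows the recovery of AMPA receptors, read 6.038, 6.036, 6.135 and 6.007 in controls and 5.744, 5.825, 5.917 and 5.996 in mutants. Its groups did not overlap either, by a narrow margin at the fourth mutant, and it differed by -0.18 ± 0.07 (adjusted p = 0.988).

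Cnih3, a cornichon protein that slows AMPA receptor closing, read 8.04, 8.30, 8.25 and 7.93 in controls and 8.46, 8.36, 8.51 and 8.16 in mutants. Its groups overlapped through mutant replicate 4, and it differed by 0.24 ± 0.10 (SE; limma adjusted p = 0.988). Next in order were Frmpd4, a PSD-95 partner that links to Homer (0.15 ± 0.07), Rasgrf2, a Ras exchange factor coupled to NMDA receptors (0.18 ± 0.09), and Cacng8, an AMPA receptor auxiliary subunit (-0.14 ± 0.07). Auxiliary proteins of AMPA receptors thus stood on both sides of 0, as did the AMPA receptor subunits.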

How the data were processed

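Total RNA of layers II to IV from 8 pups was measured on 1 Affymetrix array each (Mouse Gene 1.0 ST). The table deposited by the authors holds log2 values of 35556 probe sets, made with BRB-ArrayTools per the labels. Its version, background correction and normalization are unknown here. That the values are log2 was read from their range, 0.738 to 13.63. Depth does not apply to arrays, whose number limits the precision.

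Probe sets naming 1 gene (21789) were named through the platform annotation and GRCm38.p6 symbols, and the probe set with the highest mean was kept per gene. The array's build is not stated, so coordinates are given only for RefSeq promoters. Mutants were compared with controls by limma 3.58.1 in R 4.3.3 (genotype as the only term, two-sided, Benjamini-Hochberg over 19938 genes, threshold 0.05). The fit was tested on simulated data whose steps were all larger than any member difference. That test therefore does not show whether changes of the size seen in the members could be called. No filter on low values was applied. Single members were also tested by exact permutation over all regroupings.

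The members and lists were chosen with earlier results of these data known. Values per array are given for members with an unadjusted p under 0.05 or groups that do not overlap, and otherwise the smallest p of each class; Gria1 and Gria2 were added after their values were seen. Of the pathway list, the 6 genes of smallest p are named, and Grm6 as the one tested in its class. Levels of different probe sets are not comparable. Protein sequences were not analysed here. Alternatives covered scaling, dim genes, the variance prior, array weights, probe sets, sex-linked levels, the replicate number and each array.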

Additional observations from a re-analysis of the deposited data

Results flagged for a closer look

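In 6 of 90 groups examined (the members, 6 pathway genes, Bcl6, Neurod6 and 3 pairs, each in controls and in mutants), 1 array stood far from the other 3 of its group, and chance does so in about 1 group in 20. In mutant replicate 2, Gria3 read 8.175 against 8.55 to 8.60, Grin3b read 4.403 against 4.593 to 4.631, and Gria1 minus Gria2 was -1.018 against -0.764 to -0.72. In control replicate 4, Grm2 read 8.307 against 8.738 to 8.801 and Homer2 read 7.36 against 7.414 to 7.42. In control replicate 2, Neurod6 read 9.415 against 9.155 to 9.172.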

How the results depend on the processing

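In all 21 alternatives of the fit and at an adjusted p under 0.1, 0 members and 0 pathway genes were called; at an unadjusted p under 0.05, 1 member was higher, and 1 pathway gene was higher and 2 were lower. The smallest adjusted p of a member under any alternative was 0.819. The median member difference was -0.0274 with control 4 left out and 0.0358 with control 2 left out, the extremes of those fits, and between 0.00174 and 0.024 in the other alternatives, while 13 to 23 members were positive, against 19. With the replicate block the median was again 0.0103 and 0 members were called. The replicate numbers are not said to pair pups, and same-numbered arrays deviated from their group means with correlations of -0.0122, 0.029, 0.04 and 0.159, with only number 4 correlating best with its own number. Of the 34 members 16 kept their sign under every alternative. Quantile normalization turned Grin2c to 0.00338 and Dlg2 to 0.012, median centring turned Grin2c to 0.00292, Grin2d to 0.00144 and Dlg2 to 0.00904, and cyclic loess turned Grin2c to 0.0114 and Dlg2 to 0.00752. The Y-linked covariate turned Grin2b to -0.0281, Grin2c to 0.00596, Grid1 to -0.00249, Grm4 to 0.0171, Homer2 to -0.0355 and Neto1 to -0.0647. Leaving out the arrays with high Xist turned Grin2b to -0.0266, Grin2c to 0.0113, Grid1 to -0.00319, Grm4 to 0.0205, Homer2 to -0.0425 and Neto1 to -0.074. Over the fits without 1 array, the ranges that crossed 0 were -0.0488 to 0.00518 for Dlg1, -0.0408 to 0.0381 for Dlg2, -0.108 to 0.0416 for Gria3, -0.00457 to 0.027 for Grid1, -0.0486 to 0.0859 for Grik5, -0.0552 to 0.0741 for Grin2b, -0.0533 to 0.0199 for Grin2c, -0.0597 to 0.0598 for Grin2d, -0.108 to 0.0343 for Grin3b, -0.0315 to 0.136 for Grm2, -0.0999 to 0.00712 for Grm5, -0.0556 to 0.00823 for Homer1, -0.0247 to 0.0799 for Homer2, -0.0074 to 0.0823 for Homer3, -0.0383 to 0.106 for Neto1, -0.036 to 0.103 for Shank2 and -0.0473 to 0.0582 for Shank3. The causes were not tested. The change of Dlg4 minus Dlg3 lay between -0.0443 and 0.048 in the fits without 1 array and was 0.0564 with the Y-linked covariate, against -0.015. The missing detection calls limit what the lowest values show.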
